A study of Mus musculus with 4 samples.

Results

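Genes of the cell death machinery were followed in eye tissue of mouse embryos without Anp32b. The 38 genes were taken by symbol from the 18702 genes listed in each library, and cover caspases, the BCL2 family, inhibitor of apoptosis proteins, death receptors with their adaptors, and proteins released from mitochondria. All 38 were present in all libraries. The knockout group was 2 libraries from embryos labelled KO for Anp32b, the gene of a histone-binding nuclear phosphoprotein, and the wild-type group was 2 libraries labelled WT, all of the C57BL/6 strain. Total RNA of whole eye tissue was sequenced, so the embryos' lens, retina, surface epithelium, muscle and connective tissue contribute together. The sources used here do not give the stage, the sex, the deleted part of Anp32b or the number of embryos per library. They do not say whether the libraries of a group are separate embryos, so p-values measure the spread between these libraries, which may be technical.

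Apoptosis is run by caspases, proteases that are made as inactive precursors. In the intrinsic pathway, BH3-only proteins set free the pore formers of the BCL2 family, cytochrome c leaves the mitochondria, and APAF1 with cytochrome c activates caspase-9. In the extrinsic pathway, death receptors such as FAS recruit FADD and caspase-8 directly, and cleavage of BID joins this route to the mitochondria. In the developing eye, apoptosis removes surplus retinal neurons and helps shape the lens vesicle and optic cup, and maturing lens fibres lose their organelles while the cell itself persists. Much of this machinery is controlled at the protein level, by cleavage, binding and release, which transcript levels do not show.

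Values are FPKM, fragments scaled by transcript length and by library depth, which allow levels of different genes to be compared. Steps between low values placed the depth between about 18020000 and 18320000 fragments per library, at which 1 fragment per kilobase of transcript is worth about 0.055 FPKM. Changes are log2 fold changes of FPKM + 1, knockout minus wild type, from limma with Benjamini-Hochberg adjustment over the 13887 genes that averaged 1 FPKM or more. An adjusted p under 0.05 is a call, and adding 1 makes changes of low genes appear smaller. Anp32b itself stood at 94.53 and 92.67 FPKM in knockout libraries and at 163.18 and 179.12 FPKM in wild-type libraries (log2 fold change -0.86, SE 0.05, adjusted p = 1.11e-05). Its transcript was therefore still counted at 54.7% of the wild-type mean in libraries labelled KO. Lens fibre markers summed to 187.8 and 188.5 FPKM in knockout libraries and 1962 and 2008 FPKM in wild-type libraries, and all 8 were lower. Markers of skeletal muscle (3008 and 3061 FPKM against 1447 and 1515 FPKM) and mesenchyme (3343 and 3364 FPKM against 1532 and 1504 FPKM) summed higher in knockout than in wild-type libraries. Markers of retinal progenitors summed to 761.5 and 758.5 FPKM in knockout libraries and 1223 and 1227 FPKM in wild-type libraries. Of these 7 markers 6 were lower, and Hes5 (-0.03) was not called. Ccnd1 alone held 378.74 and 374.31 FPKM in knockout libraries and 703.17 and 711.02 FPKM in wild-type libraries. Markers of retinal ganglion cells and neurons summed to 318.31 and 321.65 FPKM in knockout libraries and 464.65 and 474.02 FPKM in wild-type libraries, and all 9 were lower. In such bulk tissue, fewer cells of a type and less RNA per cell cannot be told apart, and the part of this shift in tissue makeup in the changes below was not tested.

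With FPKM, most calls among the cell death genes were upward, and the changes were modest. Of the 34 members at the level tested, 17 were higher and 3 lower in the knockout, and 14 were not called. Over all genes tested, 33.5% were called higher and 21.1% lower, so the members' share of higher calls was above that background and their share of lower calls, 8.8%, below it. The largest rises were those of Birc3, Casp12 and Casp8, between 0.60 and 0.72 on the log2 scale, and the largest fall was that of Casp2, at -0.32. The median change of the tested members was 0.15, beside 0.04 over all genes tested. In 20 of the 34 both knockout values lay above both wild-type values, in 5 both lay below, and in 9 the groups overlapped. Over all genes tested, 45.6% had both knockout values above and 32.4% both below. These shares are the base for each statement below that the groups of a member did not overlap. Overlap was read from FPKM without the other scalings.

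**Figure D1:**
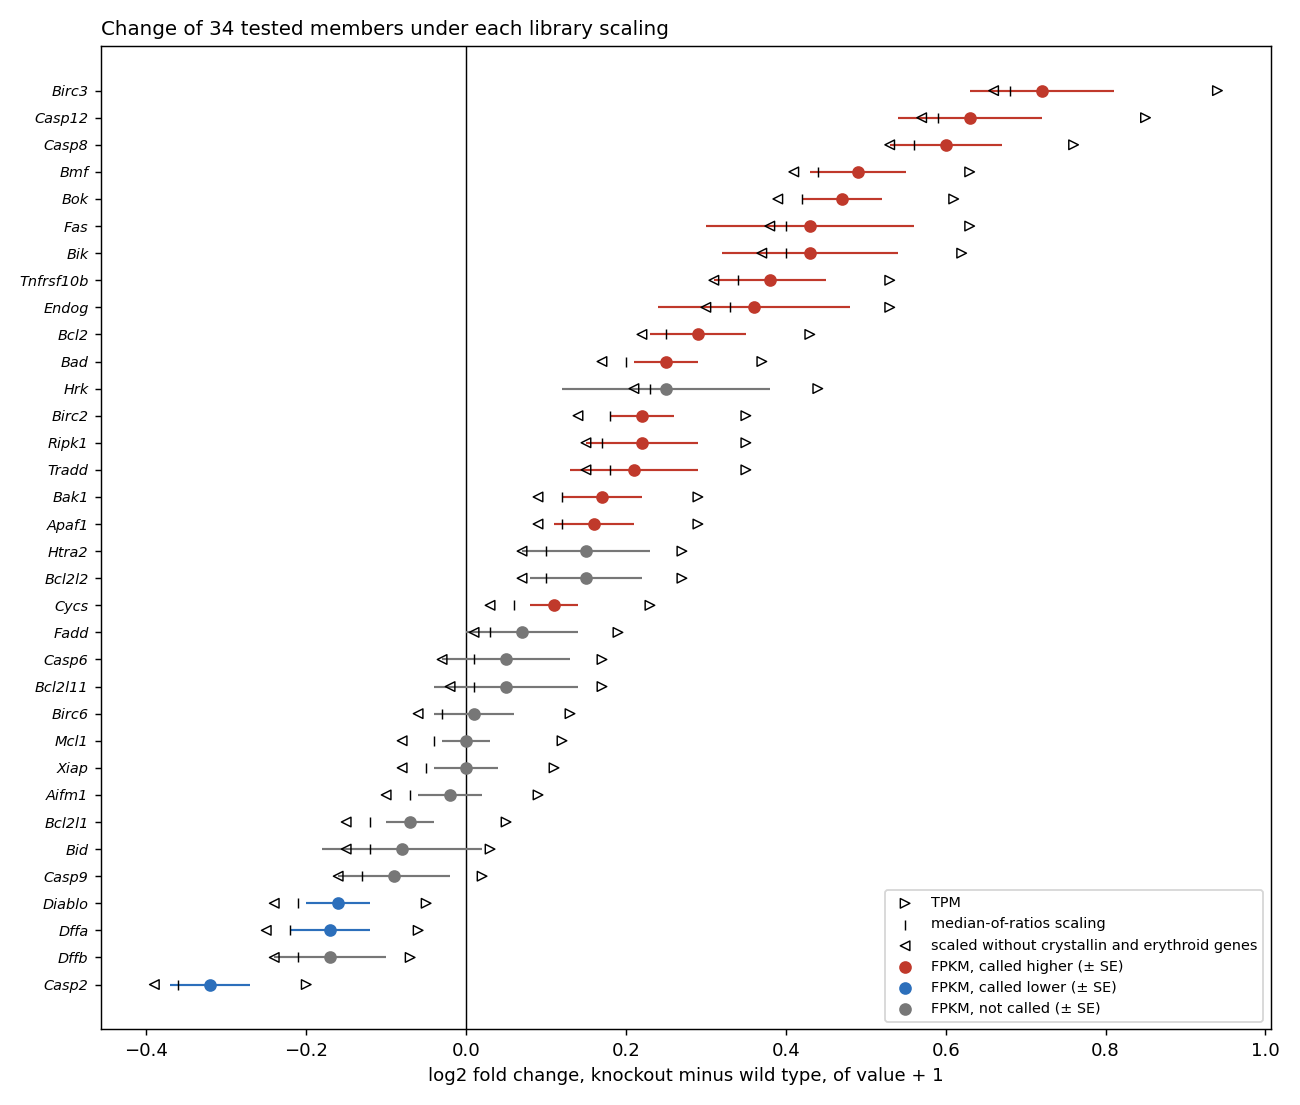
Log2 fold change (knockout minus wild type, of value + 1) of the 34 tested members on the horizontal axis, with genes listed from the largest rise to the largest fall. Filled circles with SE bars are the FPKM fit, red for members called higher, blue for lower and grey for not called, and black symbols are the same change under 3 other library scalings. Birc3 lies at 0.72 and Casp2 at -0.32, and several members between about -0.1 and 0.1, such as Casp9 and Xiap, change sign with the scaling.

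How the libraries are scaled moved these counts. Among all genes, 61.3% of calls were higher with FPKM, 80.7% with the deposited TPM values, 51.6% with median-of-ratios scaling and 44.9% when crystallin and erythroid genes were left out of the library totals, called the lens- and blood-free scaling below. The median change over all genes was 0.12 higher with TPM than with FPKM, and a change under a given scaling reads against the median of all genes under it. The members divided into 22 higher and 1 lower with TPM, where 47.8% of all genes were called higher and 11.4% lower. With median-of-ratios scaling they divided into 12 higher and 5 lower, where 28.3% of all genes were called higher and 26.5% lower. Under the lens- and blood-free scaling, 11 were higher and 5 lower, where 25.4% of all genes were called higher and 31.2% lower. The members' median change was 0.29, 0.11 and 0.08 under these scalings, beside 0.16, -0.00 and -0.04 over all genes. These medians are the base for each value quoted below under TPM, median-of-ratios scaling and the lens- and blood-free scaling. Members called higher under all 4 scalings numbered 11, namely Casp12, Casp8, Birc2, Birc3, Bcl2, Bok, Bad, Bik, Bmf, Fas and Tnfrsf10b. Casp2 was the member called lower under all 4.

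The levels spanned a wide range. Mcl1, an anti-apoptotic BCL2 protein with rapid turnover, was the most abundant member in both groups, at 58.62 and 58.66 FPKM in knockout libraries and 59.01 and 58.01 FPKM in wild-type libraries. Bcl2l1, which encodes BCL-XL, was next, followed in the knockout by Bad, Cycs, Diablo and Bcl2l2, which averaged between 25.16 and 27.19 FPKM. Casp2 was at rank 10 in the knockout, with a mean of 20.75 FPKM, and at rank 4 in the wild type, with 26.07 FPKM. Neighbours in the knockout order such as Cycs (25.48 and 25.60 FPKM) and Diablo (24.70 and 26.09 FPKM) overlapped. The median member stood at 9.16 and 9.17 FPKM in knockout libraries and at 8.11 and 7.53 FPKM in wild-type libraries. At the low end, Casp1, Casp4, Casp14 and Pmaip1 were under a mean of 1 FPKM and were not tested with FPKM under that filter.

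**Figure D2:**
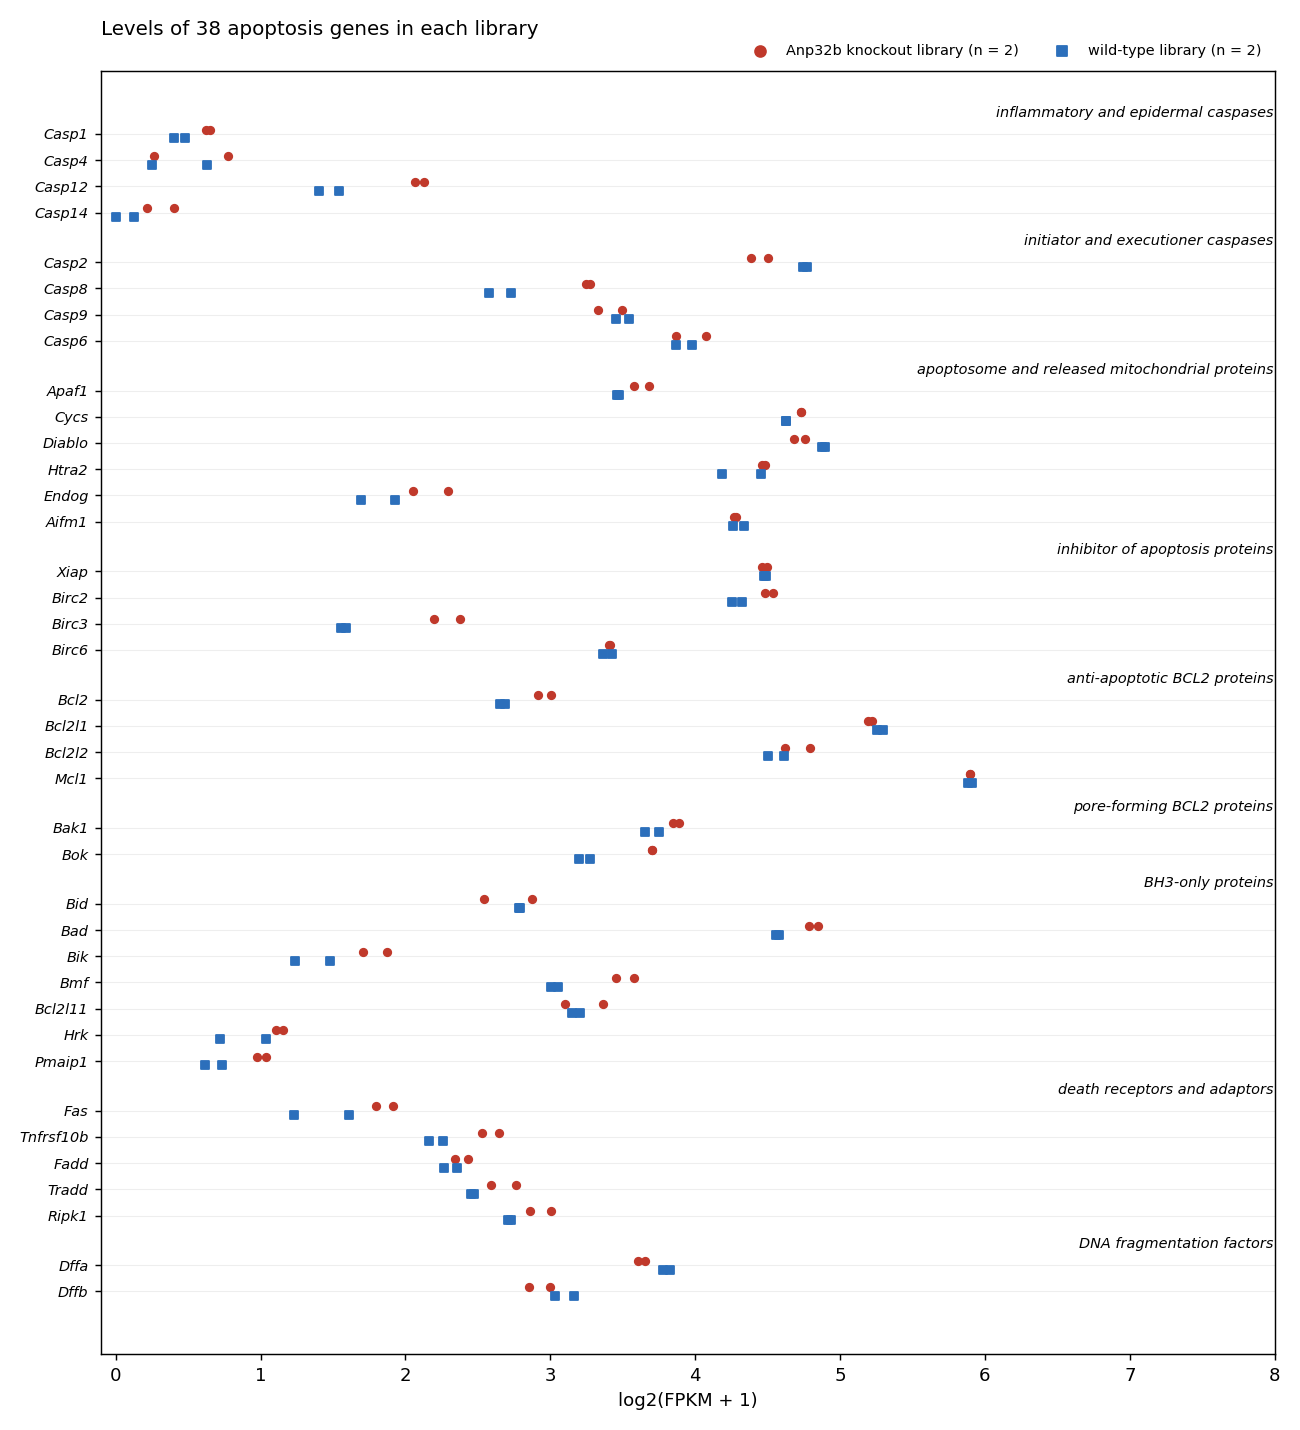
Level of each of the 38 members in each library as log2(FPKM + 1), grouped by role, with knockout libraries as red circles above wild-type libraries as blue squares (n = 2 each). The groups are apart for Casp8, Birc3, Casp12 and Bok and overlap for Xiap, Mcl1 and Casp6.

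Among the initiator and executioner caspases, Casp8 rose, Casp2 fell, and Casp9 and Casp6 were not called. Casp8 (Entrez 12370, GRCm38 chromosome 1, positions 58795374 to 58847503), the protease that death receptors activate, had 8.65 and 8.48 FPKM in knockout libraries, against 5.63 and 4.97 FPKM in wild-type libraries. Both knockout libraries were higher than both wild-type libraries, and the change was 0.60 on the log2 scale (SE 0.07, adjusted p = 0.000317). Casp2 (Entrez 12366, chromosome 6, positions 42264985 to 42282508), an initiator linked to DNA damage and to centrosome number, had 19.86 and 21.64 FPKM in knockout libraries, against 26.37 and 25.76 FPKM in wild-type libraries. Its groups did not overlap either (log2 fold change -0.32, SE 0.05, adjusted p = 0.00138). Casp9, the caspase of the intrinsic pathway, had 10.25 and 9.03 FPKM in knockout libraries and 10.67 and 9.96 FPKM in wild-type libraries (-0.09, SE 0.07, adjusted p = 0.298). Casp6, an executioner that cleaves nuclear lamins, had 15.87 and 13.57 FPKM in knockout libraries and 13.59 and 14.73 FPKM in wild-type libraries (0.05, SE 0.08, adjusted p = 0.607). For Casp9 and Casp6 the groups overlapped. Within a library, the ratio of Casp8 to Casp9 was 0.844 and 0.939 in the knockout and 0.528 and 0.499 in the wild type, a quantity that library scaling leaves as it is. The ratio of Casp2 to Casp9 was 1.94 and 2.40 in the knockout and 2.47 and 2.59 in the wild type, so that both knockout libraries lay below both wild-type libraries. The calls of Casp8 and Casp2 held in every alternative run, including the omission of each library.

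The RefSeq promoter windows of Casp8 and Casp9 differ in composition, as do those of the neighbouring inhibitor genes Birc3 and Birc2, and they are shown because Casp8 and Birc3 were among the largest rises. Windows of GRCm38.p6, from 250 bases before to 50 after a start site, were matched by symbol for 33 of the 38 members. Letters are on the gene's strand, 5′ to 3′, and capitals mark GGGCGG or its reverse complement CCGCCC, the GC box bound by Sp1-type factors, and TGACGTCA, the cyclic AMP response element, which do not overlap each other here. The windows are chr1:58802252-58802551 on the plus strand for Casp8, chr4:141793362-141793661 on the plus strand for Casp9, chr9:7873121-7873420 on the minus strand for Birc3 and chr9:7837008-7837307 on the minus strand for Birc2. The Casp8 window lies inside the gene as GENCODE places it, at a RefSeq start downstream of the GENCODE start at 58795374, so it is not the sequence upstream of that start.
Casp8: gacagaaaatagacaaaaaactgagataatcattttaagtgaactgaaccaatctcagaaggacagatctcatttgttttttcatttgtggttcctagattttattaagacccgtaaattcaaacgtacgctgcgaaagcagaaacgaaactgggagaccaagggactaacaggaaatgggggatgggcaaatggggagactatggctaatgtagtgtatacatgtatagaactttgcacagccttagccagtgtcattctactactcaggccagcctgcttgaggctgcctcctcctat
Casp9: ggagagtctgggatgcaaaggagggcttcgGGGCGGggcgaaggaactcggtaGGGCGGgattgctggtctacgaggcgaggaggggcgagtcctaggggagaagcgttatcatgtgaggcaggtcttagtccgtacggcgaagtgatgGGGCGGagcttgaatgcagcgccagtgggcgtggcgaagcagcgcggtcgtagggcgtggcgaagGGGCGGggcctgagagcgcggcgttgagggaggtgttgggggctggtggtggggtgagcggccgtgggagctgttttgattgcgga
Birc3: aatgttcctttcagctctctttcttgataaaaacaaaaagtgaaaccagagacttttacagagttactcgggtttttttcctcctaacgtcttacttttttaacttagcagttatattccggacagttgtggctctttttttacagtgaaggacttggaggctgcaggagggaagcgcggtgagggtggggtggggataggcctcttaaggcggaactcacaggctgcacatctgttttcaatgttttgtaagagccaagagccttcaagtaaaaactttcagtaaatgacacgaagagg
Birc2: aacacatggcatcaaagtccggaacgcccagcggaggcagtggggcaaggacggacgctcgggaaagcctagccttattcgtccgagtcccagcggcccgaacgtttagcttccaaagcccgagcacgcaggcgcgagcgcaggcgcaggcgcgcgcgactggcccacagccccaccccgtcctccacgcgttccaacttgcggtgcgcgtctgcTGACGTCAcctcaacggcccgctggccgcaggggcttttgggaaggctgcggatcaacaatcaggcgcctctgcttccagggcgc
The Casp8 and Birc3 windows were 42.0% and 43.0% G or C, whereas those of Casp9 and Birc2 were 66.0% and 67.0%, beside a median of 52.7% over all windows. Birc2 was itself called higher, and windows of members called higher ran from 41.0% (Casp12) to 76.0% (Bcl2). A link between composition and change was not tested. GGGCGG was found 4 times in the Casp9 window, and neither it nor TGACGTCA was found in those of Casp8 and Birc3. The Birc2 window held TGACGTCA, and a second Birc2 window held GGGCGG 2 times. On either strand, GGGCGG was in 35.7% of all 32851 windows and in 27 of the 44 windows of the members. Counted by gene, 24 of the 33 members had it in at least 1 window, comprising 10 of 14 members called higher, 3 of 3 called lower, 11 of 13 not called and 0 of 3 not tested. No share by gene over all genes is given beside these counts. TGACGTCA was in 1.79% of all windows and in those of Birc2 and Cycs. CACGTG, in 7.15% of all windows, was in those of Casp1 and Fas, and TATAAA, in 13.6%, was in 1 of Xiap. The NF-kB motif, in 8.46% of all windows, was in 7 of the 44 member windows, from 6 members (Aifm1, Bcl2l1, Bmf, Casp4, Hrk and Xiap). The p53 decamer, in 8.36% of all windows, was in 2 of the 44, from Birc2 and Bmf. All were searched on both strands.

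Inflammatory caspases were low in this tissue. Casp12, a caspase of the endoplasmic reticulum and of inflammation in mouse, had 3.19 and 3.37 FPKM in knockout libraries, against 1.91 and 1.64 FPKM in wild-type libraries. It rose by 0.63 on the log2 scale (SE 0.09, adjusted p = 0.000853), with no overlap between the groups and under every alternative that tested it. Casp1, the protease that matures interleukin-1 beta, had 0.54 and 0.57 FPKM in knockout libraries and 0.32 and 0.39 FPKM in wild-type libraries. It was called higher when no filter on low values was used (0.20, adjusted p = 0.039) and not called with TPM (0.38, adjusted p = 0.0774). Casp4, known in mouse as the sensor of cytosolic lipopolysaccharide, had 0.71 and 0.20 FPKM in knockout libraries and 0.19 and 0.55 FPKM in wild-type libraries, so that its groups overlapped. These 3 genes lie next to each other on the plus strand of chromosome 9, between positions 5298517 (start of Casp1) and 5373032 (end of Casp12). They are related in sequence, and the division of shared reads between them is not stated. Casp14, the caspase of cornifying epidermis, had 0.32 and 0.16 FPKM in knockout libraries, and was listed at 0 and at 0.09 FPKM in wild-type libraries, which is few fragments in any library.

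Summed markers of leukocytes, epidermis, skeletal muscle and mesenchyme were higher in the same knockout libraries in which Casp12 was higher. The sums for skeletal muscle and mesenchyme are given above. The 11 macrophage and leukocyte markers summed to 128.1 and 137.8 FPKM in knockout libraries and to 77.33 and 70.37 FPKM in wild-type libraries. Of them 10 were tested, all 10 were called higher, none stood at 0, and the pan-leukocyte gene Ptprc was under the level tested, at 0.82 and 0.78 FPKM in knockout libraries and 0.48 and 0.57 FPKM in wild-type libraries. The 11 markers of keratinising epidermis summed to 584.9 and 579.4 FPKM in knockout libraries and to 291.6 and 300.7 FPKM in wild-type libraries. Krt5 and Krt14 made up most of these sums. Krt5 alone had 362.28 and 359.87 FPKM in knockout libraries and 170.06 and 181.94 FPKM in wild-type libraries. Of the 8 epidermis markers tested, 6 were called higher, and Krt10 (0.22) and Sbsn (0.28) were not called. The late genes Flg, Ivl and Lor stood at or under 0.58 FPKM in every library. Flg was at 0.01 and 0.00 FPKM in the knockout and 0.00 and 0.01 FPKM in the wild type. The part of any of these cell types in the values of Casp1, Casp12 and Casp14 was not tested.

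Components of the apoptosome and the proteins released from mitochondria changed little and in both directions. Of 6 members 3 were called higher and 1 lower, with a median of 0.13, beside 33.5% higher and 21.1% lower over all genes. Diablo, which encodes the IAP antagonist SMAC, had 24.70 and 26.09 FPKM in knockout libraries, against 28.73 and 28.32 FPKM in wild-type libraries (-0.16, SE 0.04, adjusted p = 0.0115). Its groups did not overlap. Apaf1, the scaffold of the apoptosome, had 11.84 and 10.91 FPKM in knockout libraries and 10.13 and 9.98 FPKM in wild-type libraries (0.16, SE 0.05, adjusted p = 0.0375). Cycs, somatic cytochrome c, had 25.48 and 25.60 FPKM in knockout libraries and 23.67 and 23.66 FPKM in wild-type libraries (0.11, SE 0.03, adjusted p = 0.0344). For both genes the knockout values were above the wild-type values, and for Cycs reads may be shared with processed pseudogenes. Endog, a mitochondrial nuclease, had 3.15 and 3.91 FPKM in knockout libraries and 2.81 and 2.23 FPKM in wild-type libraries (0.36, SE 0.12, adjusted p = 0.0325). Htra2, a mitochondrial serine protease that also binds IAPs, was not called at 0.15, nor was Aifm1, the flavoprotein of the inner membrane, at -0.02. Htra2 was called with TPM (0.27) and without wild-type replicate 2 (0.28), where its wild-type values were 17.23 and 20.97 FPKM.

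Each of these 4 calls ended under some alternatives. The call of Apaf1 was lost without knockout replicate 1 (0.11), wild-type replicate 1 (0.17) or wild-type replicate 2 (0.15), and that of Cycs without any of the 4 libraries (0.10 to 0.11). Both also ended with median-of-ratios scaling (0.12 and 0.06) and under the lens- and blood-free scaling (0.09 and 0.03). Endog was not called without knockout replicate 2 or wild-type replicate 2 (0.24 each), nor under the lens- and blood-free scaling (0.30). Diablo was not called with TPM (-0.05) or without knockout replicate 1 (-0.12) or wild-type replicate 1 (-0.15).

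Of the inhibitor of apoptosis proteins, Birc3 and Birc2 rose, while Xiap and Birc6 were not called. Birc3 (Entrez 11796, chromosome 9, positions 7848699 to 7873186, minus strand), a ubiquitin ligase of TNF receptor complexes and a known NF-kB target gene, had 4.20 and 3.59 FPKM in knockout libraries, against 2.01 and 1.94 FPKM in wild-type libraries. This was the largest change among the members (0.72, SE 0.09, adjusted p = 0.00049), with a ratio of the means of 1.97. Its neighbour Birc2 (positions 7818227 to 7837064, minus strand), which encodes the related ligase cIAP1, had 22.20 and 21.33 FPKM in knockout libraries and 19.01 and 18.06 FPKM in wild-type libraries (0.22, SE 0.04, adjusted p = 0.00453). The groups did not overlap for either gene. The ratio of Birc3 to Birc2 within a library was 0.189 and 0.168 in the knockout and 0.106 and 0.107 in the wild type. Xiap, the direct caspase inhibitor, had 21.52 and 21.05 FPKM in knockout libraries and 21.44 and 21.25 FPKM in wild-type libraries, and Birc6, a very large ubiquitin ligase, had 9.66 and 9.59 FPKM in knockout libraries and 9.75 and 9.31 FPKM in wild-type libraries. Their changes were -0.00 (adjusted p = 0.935) and 0.01 (adjusted p = 0.835), and Xiap was called higher with TPM at 0.11, which is under the all-gene TPM median of 0.16. The call of Birc2 was lost without knockout replicate 1 (0.19), and that of Birc3 held under every alternative that tested it.

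The anti-apoptotic BCL2 proteins, which hold pore formers and BH3-only proteins in check, held 1 rise among 4 members, with a median of 0.08. Of all genes, 33.5% were called higher. Bcl2 had 7.02 and 6.55 FPKM in knockout libraries, against 5.45 and 5.28 FPKM in wild-type libraries (0.29, SE 0.06, adjusted p = 0.00594). It was the least abundant of the 4, its groups did not overlap, and its call was lost without knockout replicate 1 (0.25). Bcl2l1 had 36.31 and 35.58 FPKM in knockout libraries and 38.34 and 37.22 FPKM in wild-type libraries (-0.07, SE 0.03, adjusted p = 0.121). It was called lower with median-of-ratios scaling (-0.12) and under the lens- and blood-free scaling (-0.15). Bcl2l2, encoding BCL-W, had 26.76 and 23.55 FPKM in knockout libraries and 23.52 and 21.66 FPKM in wild-type libraries (0.15, SE 0.07, adjusted p = 0.1), and was called with TPM (0.27) and without knockout replicate 2 (0.24). Mcl1, given above, changed by 0.00 (SE 0.03, adjusted p = 0.934) and was called higher with TPM at 0.12, also under that median. Mcl1 and Bcl2l1 together made up 73.75% and 75.79% of the summed FPKM of the 4 genes in knockout libraries and 77.07% and 77.95% in wild-type libraries.

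Both pore-forming members were higher with FPKM, where 33.5% of all genes were called higher. With median-of-ratios scaling and under the lens- and blood-free scaling 1 of 2 was higher. Bok, a BAX-like protein of the endoplasmic reticulum and mitochondria, had 12.04 and 12.02 FPKM in knockout libraries, against 8.67 and 8.19 FPKM in wild-type libraries (0.47, SE 0.05, adjusted p = 0.000261). Bak1, a pore former of the outer mitochondrial membrane, had 13.36 and 13.84 FPKM in knockout libraries and 12.44 and 11.61 FPKM in wild-type libraries (0.17, SE 0.05, adjusted p = 0.0275). Neither gene's groups overlapped. The ratio of Bok to Bak1 within a library was 0.901 and 0.869 in the knockout and 0.697 and 0.705 in the wild type. The call of Bok held under every alternative. That of Bak1 was lost without knockout replicate 1 (0.19), knockout replicate 2 (0.14) or wild-type replicate 2 (0.12), with median-of-ratios scaling (0.12) and under the lens- and blood-free scaling (0.09).

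BH3-only genes, the triggers of the intrinsic pathway, held 3 rises among 6 tested members, with a median of 0.25. The share of all genes called higher was 33.5%. Bmf, whose protein senses detachment from the matrix, had 9.94 and 10.96 FPKM in knockout libraries, against 7.29 and 7.03 FPKM in wild-type libraries (0.49, SE 0.06, adjusted p = 0.000546). Bad, whose protein is held inactive by growth factor signalling through phosphorylation, had 26.59 and 27.78 FPKM in knockout libraries, against 22.56 and 22.89 FPKM in wild-type libraries (0.25, SE 0.04, adjusted p = 0.00147). Bik had 2.66 and 2.26 FPKM in knockout libraries, against 1.79 and 1.36 FPKM in wild-type libraries (0.43, SE 0.11, adjusted p = 0.0157). In all 3 the knockout values were above the wild-type values. The calls of Bmf and Bad held under every alternative, and that of Bik was lost without knockout replicate 1 (0.35) or wild-type replicate 2 (0.31). Hrk, a BH3-only gene of neurons, had 1.23 and 1.15 FPKM in knockout libraries and 0.65 and 1.05 FPKM in wild-type libraries (0.25, SE 0.13, adjusted p = 0.137), and was called without wild-type replicate 2 (0.41). Pmaip1, the p53 target NOXA, was below the level tested, at 0.97 and 1.05 FPKM in knockout libraries and 0.66 and 0.53 FPKM in wild-type libraries. It was called higher with TPM (0.56, adjusted p = 0.0126) and without a filter on low values (0.33, adjusted p = 0.0206). Bcl2l11, which encodes BIM, and Bid were not called, at 0.05 and -0.08, and the groups overlapped for both. Exons of Bid overlap those of Bcl2l13 on the opposite strand, and the use of strand in counting is not stated.

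Summed over the BCL2-family members chosen here, which leave out Bax and Bbc3, the pro-apoptotic transcripts were more abundant in the knockout libraries, and the anti-apoptotic ones overlapped between the groups. The 9 pro-apoptotic members, pore formers and BH3-only genes, summed to 80.7 and 83.2 FPKM in knockout libraries and to 68.22 and 66.44 FPKM in wild-type libraries. The 4 anti-apoptotic members summed to 128.7 and 124.3 FPKM in knockout libraries and to 126.3 and 122.2 FPKM in wild-type libraries, which overlap. The ratio of pro- to anti-apoptotic transcripts within a library was 0.627 and 0.669 in the knockout and 0.540 and 0.544 in the wild type. Means were 0.648 ± 0.030 in the knockout and 0.542 ± 0.003 in the wild type (SD, n = 2 each), and no p-value is given for a sum over chosen genes. Bax, a pore former, had 52.91 and 50.58 FPKM in knockout libraries and 52.47 and 53.95 FPKM in wild-type libraries, and Bbc3, the BH3-only gene of PUMA, had 7.97 and 8.03 FPKM in knockout libraries and 8.96 and 7.37 FPKM in wild-type libraries. Neither was called, and Bax was called lower under the lens- and blood-free scaling (-0.12). With both added, the pro-apoptotic sum was 141.58 and 141.81 FPKM in knockout libraries and 129.65 and 127.76 FPKM in wild-type libraries. The ratio was then 1.10 and 1.14 in the knockout and 1.03 and 1.05 in the wild type, so the groups were still apart but the ratio of their means was 1.081 in place of 1.196. Bad, Bak1, Bok and Bmf were the most abundant pro-apoptotic members in the knockout, and a transcript ratio does not give the ratio of active proteins.

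Death receptors and their adaptors held 4 rises among 5 members, with a median of 0.22, where 33.5% of all genes were called higher. Tnfrsf10b, the TRAIL receptor of the mouse, had 5.25 and 4.77 FPKM in knockout libraries, against 3.48 and 3.78 FPKM in wild-type libraries (0.38, SE 0.07, adjusted p = 0.00454). Fas, the receptor of FAS ligand, had 2.48 and 2.76 FPKM in knockout libraries, against 1.35 and 2.06 FPKM in wild-type libraries (0.43, SE 0.13, adjusted p = 0.0287). Ripk1, the kinase that links TNF receptor signalling to survival or to death, had 7.03 and 6.27 FPKM in knockout libraries, against 5.62 and 5.54 FPKM in wild-type libraries (0.22, SE 0.07, adjusted p = 0.0301). In these 3 genes both knockout values lay above both wild-type values, as in 45.6% of all genes tested. Tradd, an adaptor of TNF receptor 1, had 5.02 and 5.79 FPKM in knockout libraries, against 4.55 and 4.47 FPKM in wild-type libraries (0.21, SE 0.08, adjusted p = 0.0467). The groups did not overlap for Tradd either. Fadd, the adaptor that brings caspase-8 to the receptor, had 4.39 and 4.07 FPKM in knockout libraries and 3.82 and 4.13 FPKM in wild-type libraries, which overlap (0.07, SE 0.07, adjusted p = 0.424).

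Of these, the call of Tnfrsf10b held under every alternative that tested it. The call of Fas was lost without knockout replicate 1 (0.49), knockout replicate 2 (0.38) or wild-type replicate 1 (0.24), but held under all 4 library scalings. The call of Ripk1 was lost without knockout replicate 1 (0.14), wild-type replicate 1 (0.22) or wild-type replicate 2 (0.21), and that of Tradd without knockout replicate 2 (0.13), wild-type replicate 1 (0.23) or wild-type replicate 2 (0.20). Both were also lost with median-of-ratios scaling (0.17 and 0.18) and under the lens- and blood-free scaling (0.15 each). That left 2 of 5 receptors and adaptors higher under either scaling, where 28.3% and 25.4% of all genes were called higher. Summed markers of leukocytes, epidermis, skeletal muscle and mesenchyme, given above, were higher in the same libraries. The part of any of these cell types in the receptor values was not tested.

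Of the DNA fragmentation factors, Dffa fell and Dffb was not called, and with TPM neither was called. Dffa, which encodes the inhibitor and chaperone of the caspase-activated DNase, had 11.60 and 11.16 FPKM in knockout libraries, against 12.72 and 13.21 FPKM in wild-type libraries (-0.17, SE 0.05, adjusted p = 0.0172). Dffb, which encodes the nuclease itself, had 6.98 and 6.24 FPKM in knockout libraries and 7.97 and 7.17 FPKM in wild-type libraries (-0.17, SE 0.07, adjusted p = 0.0872), past the threshold with median-of-ratios scaling (-0.21) and under the lens- and blood-free scaling (-0.24). The ratio of Dffa to Dffb within a library was 1.66 and 1.79 in the knockout and 1.60 and 1.84 in the wild type, so that it overlapped. The call of Dffa was lost with TPM (-0.06) and without knockout replicate 1 (-0.20), knockout replicate 2 (-0.15) or wild-type replicate 2 (-0.15).

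Set against each other, the extrinsic pathway held 7 rises and 0 falls among 8 members, with a median of 0.30, and the intrinsic pathway 9 rises and 1 fall among 18 tested of 19, with a median of 0.15. Of all genes, 33.5% were called higher and 21.1% lower, beside 7 of 8 and 9 of 18 members higher. The extrinsic members were Fas, Tnfrsf10b, Fadd, Tradd, Ripk1, Casp8, Birc2 and Birc3. Of these, Birc2 and Birc3 are anti-apoptotic, and both were among the rises. The pro-apoptotic extrinsic members Casp8, Fas and Tnfrsf10b were higher and Fadd was not called. The intrinsic list also holds the anti-apoptotic BCL2 genes. Its pro-apoptotic members alone held 8 rises (57.1%) and 1 fall among 14 tested of 15, with a median of 0.16. Under the lens- and blood-free scaling 5 of 8 extrinsic members were higher, and 5 of 18 intrinsic members were higher and 2 lower. That intrinsic share of higher calls, 27.8%, was near the 25.4% of all genes. With median-of-ratios scaling the counts were 5 of 8 higher, and 6 of 18 higher with 2 lower, the intrinsic share of 33.3% standing beside 28.3% of all genes. With TPM 7 of 8 extrinsic members and 13 of 19 intrinsic members were higher, with none lower in either, where 47.8% of all genes were called higher. The summed FPKM of the extrinsic members was 59.22 and 57.06 in knockout libraries and 45.47 and 44.95 in wild-type libraries, while that of the intrinsic members was 318.24 and 317.45 in knockout libraries and 300.02 and 297 in wild-type libraries. Their ratio within a library was 0.186 and 0.180 in the knockout and 0.152 and 0.151 in the wild type. Of the extrinsic sum, Birc2 held 22.20 and 21.33 FPKM in knockout libraries and 19.01 and 18.06 FPKM in wild-type libraries. The difference between the pathways was not tested.

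**Figure D3:**
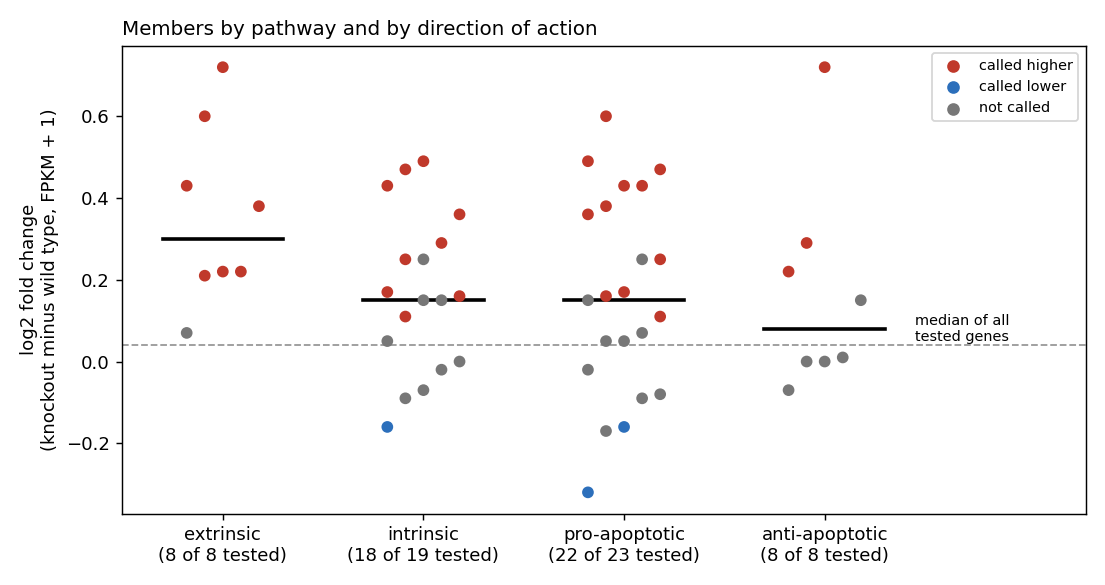
Log2 fold change of FPKM + 1 (knockout minus wild type) of tested members by pathway and by direction of action, with 1 point per gene, black bars for the list medians and a dashed line at the median of all tested genes (0.04). The extrinsic median is 0.30 and the intrinsic median 0.15, the pro-apoptotic 0.15 and the anti-apoptotic 0.08.

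By direction of action, pro-apoptotic members held 11 rises and 2 falls among 22 tested of 23, with a median of 0.15. The falls were those of Casp2 and Diablo. These 11 of 22 higher calls stand beside 33.5% of all genes, and the share of the anti-apoptotic members, 37.5%, was near it. The 8 anti-apoptotic members held 3 rises (Birc3, Birc2 and Bcl2) and no fall, with a median of 0.08. With TPM 6 of 8 anti-apoptotic members were higher, and under the lens- and blood-free scaling 3 were higher and 1, Bcl2l1, lower. Pro-apoptotic members numbered 7 higher and 3 lower among 22 under that last scaling, 8 higher and 3 lower with median-of-ratios scaling, and 13 higher and 1 lower of 23 with TPM. Their shares of higher calls were 31.8%, 36.4% and 56.5%, beside 25.4%, 28.3% and 47.8% of all genes. The members left in neither class were the inflammatory and epidermal caspases, Tradd, Ripk1 and Dffa.

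**Figure D4:**
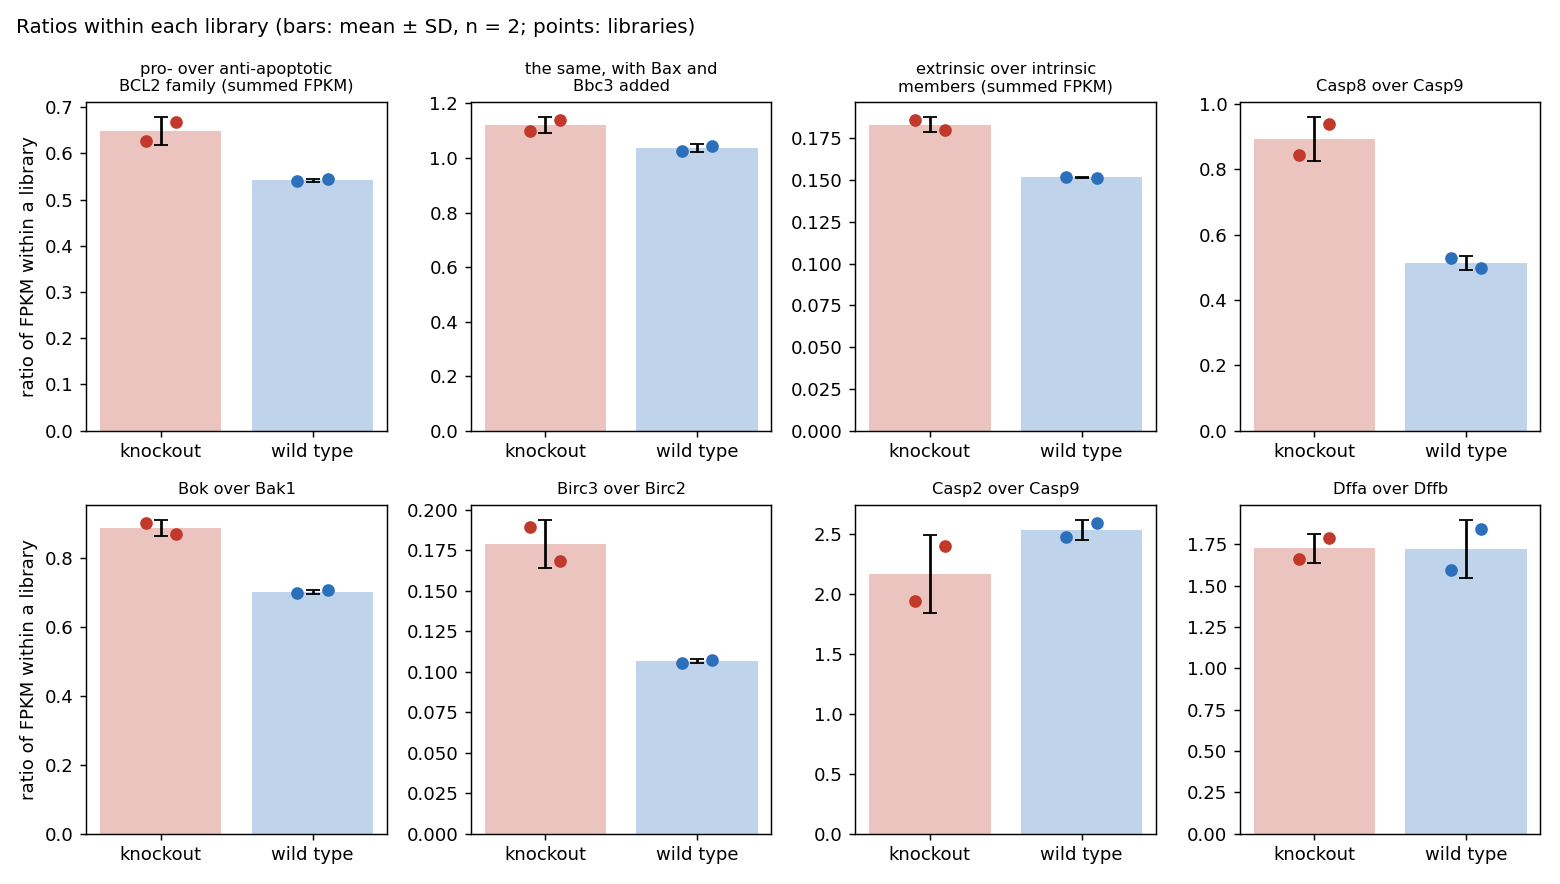
Ratios of FPKM within a library for knockout and wild type, with bars for the mean, error bars for the SD (n = 2) and points for the libraries, on axes that start at 0. In 6 of the 8 ratios both knockout libraries lie above both wild-type libraries, for example 0.844 and 0.939 against 0.528 and 0.499 for Casp8 over Casp9. For Casp2 over Casp9 both lie below, and for Dffa over Dffb the groups overlap. The single gene pairs were chosen after their values were seen, and the ratio with Bax and Bbc3 contains the members of the first. The count of ratios therefore describes these panels only.

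Other genes of the death pathways changed in both directions, near the share of all genes. Of 40 listed genes 33 were tested, 13 were higher (39.4%) and 8 lower (24.2%), with a median of 0.05. Gsdmd, the pore protein of pyroptosis, had 6.53 and 7.11 FPKM in knockout libraries, against 3.06 and 3.44 FPKM in wild-type libraries (0.88, adjusted p = 9.19e-05). Bnip3, a mitochondrial BH3-domain protein induced by hypoxia, had 99.03 and 101.08 FPKM in knockout libraries, against 59.58 and 60.10 FPKM in wild-type libraries (0.73). Pycard, the inflammasome adaptor ASC, had 3.99 and 4.44 FPKM in knockout libraries, against 2.11 and 2.24 FPKM in wild-type libraries (0.71). These were the largest rises of the list. Summed markers of leukocytes, epidermis, skeletal muscle and mesenchyme were also higher in the knockout libraries. The part of any of these cell types in these rises was not tested.

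Falls on the list included those of Birc5 and Bcl2l13. Birc5, which encodes survivin, a mitotic protein of the BIR family, had 47.76 and 47.43 FPKM in knockout libraries, against 62.63 and 64.15 FPKM in wild-type libraries (-0.41). Bcl2l13, a mitophagy receptor of the BCL2 family, had 17.17 and 17.69 FPKM in knockout libraries, against 22.92 and 23.52 FPKM in wild-type libraries (-0.39). All 5 of these genes were called the same way under all 4 scalings. Under the lens- and blood-free scaling the list held 8 rises (24.2%) and 13 falls (39.4%), beside 25.4% and 31.2% of all genes. With TPM it held 19 rises (52.8%) and 5 falls (13.9%) among 36 tested, beside 47.8% and 11.4% of all genes.

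The genome positions of the members bear on how far their values can be read. Exons of 12 of the 38 overlap exons of another annotated gene, 11 of them on the opposite strand, among them Bcl2, Bak1, Bad, Endog and Ripk1 of those called higher and Diablo of those called lower. Bcl2l2, Diablo and Ripk1 share exon sequence with another gene on their own strand, namely Gm20521, Gm49027 and Gm17084. None of Casp8, Casp12, Birc3, Bok, Bmf, Fas, Tnfrsf10b and Casp2 has such an overlap.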

How the data were processed

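Trizol was used to isolate total RNA from embryonic eyes, and libraries followed a standard Illumina preparation, per the labels' protocols. The authors deposited, per the file headers, FPKM values and TPM values for each gene of each library. Each TPM column sums to 1000000. Cufflinks, DESeq, HISAT2 and TopHat are named in the submitters' processing notes, as are the builds GRCm38 and GRCh38. The sources used here give no versions, roles, annotation or strand use. The tables hold no read counts. Depth was estimated from the spacing of low FPKM values in 277 to 312 short genes with 1 annotated transcript per library. Of these values 57.8% to 62.5% lay within 0.15 of a whole fragment, too few for counts to be recovered.

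Genes that averaged 1 FPKM or more were fitted as log2(FPKM + 1) with limma-trend (limma 3.58.1 under R 4.3.3), with genotype as the only term, which left 2 residual and 4.89 prior degrees of freedom. The test is two-sided. The code was tested on simulated data. Roles, pathway and direction of action were assigned from textbook knowledge. The members and lists were chosen with earlier results of these data known. Values in each library are given for up to 4 members of each role group with the lowest p, for members with a change of at least 0.5 and for those below the level tested, and other death genes by the 3 largest rises and falls among those called, of which 1 is not reported here. Mcl1, Bid's overlap and the ratios of single gene pairs were singled out after their values were seen. Positions and exon overlaps come from GENCODE vM21 (GRCm38). Figures were drawn with matplotlib 3.10.9 in Python 3.11.15.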

Additional observations from a re-analysis of the deposited data

How the results depend on the processing

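The number of all genes called, 7586, stayed within 1.5 times under every alternative (5415 to 8903). Of the members, 17 were higher and 3 lower. Higher members numbered 11 where 5 FPKM was required in 2 libraries or more, which tested 26 of the 34, and 11 under the lens- and blood-free scaling, and 9 to 13 without each library in turn. Lower members numbered 5 with median-of-ratios scaling, 5 under the lens- and blood-free scaling, 1 with TPM, 1 with TPM over the genes tested with FPKM (an alternative added after seeing the data), and 1 to 2 without each library. With the omission of single libraries 7 of 17 higher calls and 1 of 3 lower calls held throughout, and 9 higher members remained called without knockout replicate 1. Xiap, at -0.00 with FPKM, was called higher at 0.11 with TPM over either set of genes. A pseudocount of 0.1 changed no member's call, and testing without a filter ended 6 (Apaf1, Endog, Bak1, Fas, Tradd and Ripk1) and added Casp1 (0.20) and Pmaip1 (0.33), which average under 1 FPKM. The replicate numbers do not pair the libraries by any label, and same-numbered libraries deviated together with a correlation of 0.04. With the replicate block 7828 genes were called, and 18 members were higher and 4 lower, Bcl2l2 and Dffb being added. The difference in the pro- to anti-apoptotic ratio, 0.106, ran from 0.085 to 0.127 without each library and was 0.084 with Bax and Bbc3 added, an alternative chosen after seeing the data. Where not stated, the cause of a change was not tested. With 2 libraries a group and about 18020000 fragments, genes under 1 FPKM such as Casp4 and Casp14 rest on few fragments.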
